A study of Mus musculus with 6 samples.

Results

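Expression of 10 transcription factors of blood stem and progenitor cells was read across 3 groups of mouse marrow cells. The factors were Hlf, Erg, Fli1, Runx1, Mecom, Etv6, Ikzf2, Myb, Hhex and Sox6, chosen by gene symbol for their known roles and not by these values, although earlier results of the series were known when they were listed. All 10 were measured, through 28 of the 34945 probe sets that name a single gene, and they were 10 of the 18193 genes tested. Each probe set is a group of short probes on an Affymetrix mouse expression array that together read 1 stretch of a transcript.

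The groups were MN1VP16, MN1 and Gr1Mac, with 2 arrays each. MN1VP16 cells were marrow cells sorted for GFP after retroviral transfer of pSF91-MN1VP16-IRES-GFP, and MN1 cells had pSF91-MN1-IRES-GFP in its place. MN1 is a cofactor of transcription that can drive myeloid leukaemia in mice when overexpressed, and VP16 names a strong activator protein of herpesvirus. Donors of the transduced marrow were C57BL/6J mice that had received 5-fluorouracil at 150 mg/kg for 4 days. That marrow was cultured with cytokines for 48 hours, transduced, put into lethally irradiated syngeneic mice and sorted 4 weeks later. Gr1Mac cells were Gr1-positive, CD11b-positive marrow cells of the same strain, and the labels do not say whether they came from transplanted mice. Nor do the labels say how many mice stand behind an array, so the p-values measure the spread between these arrays only. In MN1VP16 and MN1 the labels do not tell technical spread from spread between animals. Some genes differed widely between the 2 MN1VP16 arrays, such as Mecom (8.45 and 5.13) and the Y-linked gene Eif2s3y (10.40 and 7.43). The source of that spread was not tested. The Gr1Mac arrays differed in sex pattern, as given below, so they came from different animals. GFP marks any cell that carries the vector, whatever its lineage. In these bulk samples more cells of a type and more RNA per cell cannot be told apart.

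These factors bind DNA and set which genes a blood cell uses. Erg and Fli1 are close relatives of the ETS family, and in progenitors they are described as binding many of the same regulatory regions as Runx1, Gata2, Tal1, Lyl1 and Lmo2. Hlf and Mecom are known for keeping stem cells in their undifferentiated, long-lived state, and Myb for the growth of progenitors. Several of them are altered in leukaemia, among them Runx1, Etv6, Mecom, Erg and Hlf, whose human counterparts are partners in gene fusions.

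Promoter windows of Hlf, Sox6 and Myb are shown here because the factors that differed most between the groups include these genes. The sequences are RefSeq's, on build GRCm38.p6, written 5′ to 3′ on the gene's strand from 250 bases before a transcript start to 50 after it. Capitals mark letters searched on both strands: CCGGAA for ETS factors, TGTGGT for Runx factors, AACNG for Myb, AGATAA for GATA factors and TTACGNAA for the family of Hlf. The Hlf window lies at chr11:90390868-90391167 on the minus strand, the first of the 6 Sox6 windows at chr7:116038695-116038994 on the minus strand, and the Myb window at chr10:21160935-21161234 on the minus strand.
Hlf: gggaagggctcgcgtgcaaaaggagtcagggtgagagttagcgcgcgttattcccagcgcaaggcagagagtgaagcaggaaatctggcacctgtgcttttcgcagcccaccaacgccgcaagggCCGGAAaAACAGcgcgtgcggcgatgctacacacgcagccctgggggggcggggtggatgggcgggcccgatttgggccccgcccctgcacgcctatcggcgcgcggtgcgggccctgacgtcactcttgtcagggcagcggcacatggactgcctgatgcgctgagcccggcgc
Sox6: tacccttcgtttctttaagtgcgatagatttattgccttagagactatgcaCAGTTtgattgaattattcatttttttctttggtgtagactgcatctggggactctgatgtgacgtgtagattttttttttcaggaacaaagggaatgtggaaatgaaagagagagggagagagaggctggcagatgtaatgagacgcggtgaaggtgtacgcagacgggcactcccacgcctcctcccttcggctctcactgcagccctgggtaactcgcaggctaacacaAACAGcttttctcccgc
Myb: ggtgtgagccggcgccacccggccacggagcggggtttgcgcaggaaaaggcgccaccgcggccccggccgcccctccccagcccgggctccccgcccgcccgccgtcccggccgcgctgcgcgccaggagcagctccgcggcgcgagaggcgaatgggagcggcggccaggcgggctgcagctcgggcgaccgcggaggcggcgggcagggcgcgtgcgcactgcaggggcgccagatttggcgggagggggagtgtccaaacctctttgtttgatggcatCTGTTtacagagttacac

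The Hlf window holds the ETS letters once, with the Myb letters starting 7 bases further on and no base shared between them. The printed Sox6 window holds only the Myb letters, at both of its marked places, and the Myb window holds them once. Of 32851 RefSeq windows of the same length, 14.9% hold the ETS letters, 16.8% the Runx letters, 80.3% the Myb letters, 11.2% the GATA letters and 0.627% the letters of the Hlf family. RefSeq windows matched 8 of the 10 factors, with 17 windows in all. Ikzf2 and Fli1 had no entry. A second start of Runx1 held the ETS letters, 1 start of Runx1 and 2 of Sox6 the Runx letters, and 1 start each of Erg and Sox6 the GATA letters. The windows also differed in base composition: G and C made up 67.3% of the Hlf window, 47.0% of the printed Sox6 window and 75.0% of the Myb window, against a median of 52.7% over all windows. The arrays read the 3′ end of transcripts, so they do not tell which of a gene's starts was used.

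Values are the authors' log2 values, in which 1 unit is a doubling, and a difference is between group means of these. Where a gene had several probe sets, the one brightest on average across the 6 arrays stands for it. Differences were tested with limma over all 18193 genes at once, and a gene was called at a Benjamini-Hochberg adjusted p under 0.05. Errors are standard errors (SE) unless SD is written, and intervals are 95% intervals. Levels are compared within a probe set only, since probes differ in brightness.

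Some features of the whole series bear on what follows. Array values of ordinary probe sets correlated at 0.981 to 0.990 within groups and 0.890 to 0.972 between them. Xist, an RNA of female cells, was high on both MN1 arrays and on Gr1Mac array 1. The Y-linked genes Kdm5d and Eif2s3y were high on the other 3 arrays, both of MN1VP16 and Gr1Mac array 2. Uty, also Y-linked, was dim throughout, at 5.08 to 5.36 on those arrays and 3.90 to 4.05 on the arrays high in Xist. Each difference between MN1VP16 and MN1 is therefore also one between these sex patterns. Clustering on bright control features, cut into 2 sides, put MN1VP16 array 1 and both MN1 arrays on 1 side. MN1VP16 array 2 and both Gr1Mac arrays were on the other. Such a cut gives 2 sides for any data, and the size of the gap between them was not measured. Each difference between MN1 and Gr1Mac is therefore also one between the sides of this split. Xist read up to 5.84 on the arrays high in Y-linked genes, and a level at or under that can be background alone. Of 11 granulocyte and monocyte markers measured, all 11 were above that level on every array, and the CD11b gene Itgam read 9.44 and 8.88 in MN1VP16, 7.67 and 6.95 in MN1 and 10.95 and 10.92 in Gr1Mac. Itgam was the 1 of the 11 lower in MN1VP16 than in Gr1Mac and higher in MN1VP16 than in MN1, and 8 of the 11 were lower in MN1 than in Gr1Mac. The Gr1 genes Ly6g and Ly6c1 had no single-gene probe set, so that part of the sort was not checked.

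In MN1 cells, 4 of the 10 factors were higher than in Gr1Mac cells, Sox6, Ikzf2, Hlf and Myb, and 0 were called lower. Among all genes 17.3% were called higher and 12.0% lower in this comparison, so a call in it is common. In MN1VP16 cells, 3 factors were higher than in Gr1Mac, Ikzf2, Myb and Hlf, where 3.66% of all genes were called higher, and 0 were lower, where 2.11% were. Between the constructs, Sox6, Hlf and Ikzf2 were lower in MN1VP16 than in MN1, and 0 factors were higher, where 2.70% of all genes were called lower and 1.15% higher. The median difference of the 10 factors was 0.72 log2 units in MN1VP16 minus Gr1Mac, 0.99 in MN1 minus Gr1Mac and -0.30 in MN1VP16 minus MN1, against -0.00051, -0.06 and 0.03 over all genes. The first and second comparisons share the Gr1Mac arrays, and the third shares arrays with both.

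The 28 probe sets were also fitted with all 34945 single-gene probe sets. In MN1VP16 minus Gr1Mac, 7 of the 28 were called higher and 0 lower, where 3.12% of all probe sets were higher and 2.31% lower. In MN1 minus Gr1Mac, 11 were higher and 1 lower, beside 15.0% and 11.6% of all probe sets. In MN1VP16 minus MN1, 0 were higher and 8 lower, beside 0.913% and 2.34%. These calls came from Hlf, Sox6, Ikzf2 and Myb, and the 1 lower in MN1 than in Gr1Mac from Fli1.

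**Figure D1:**
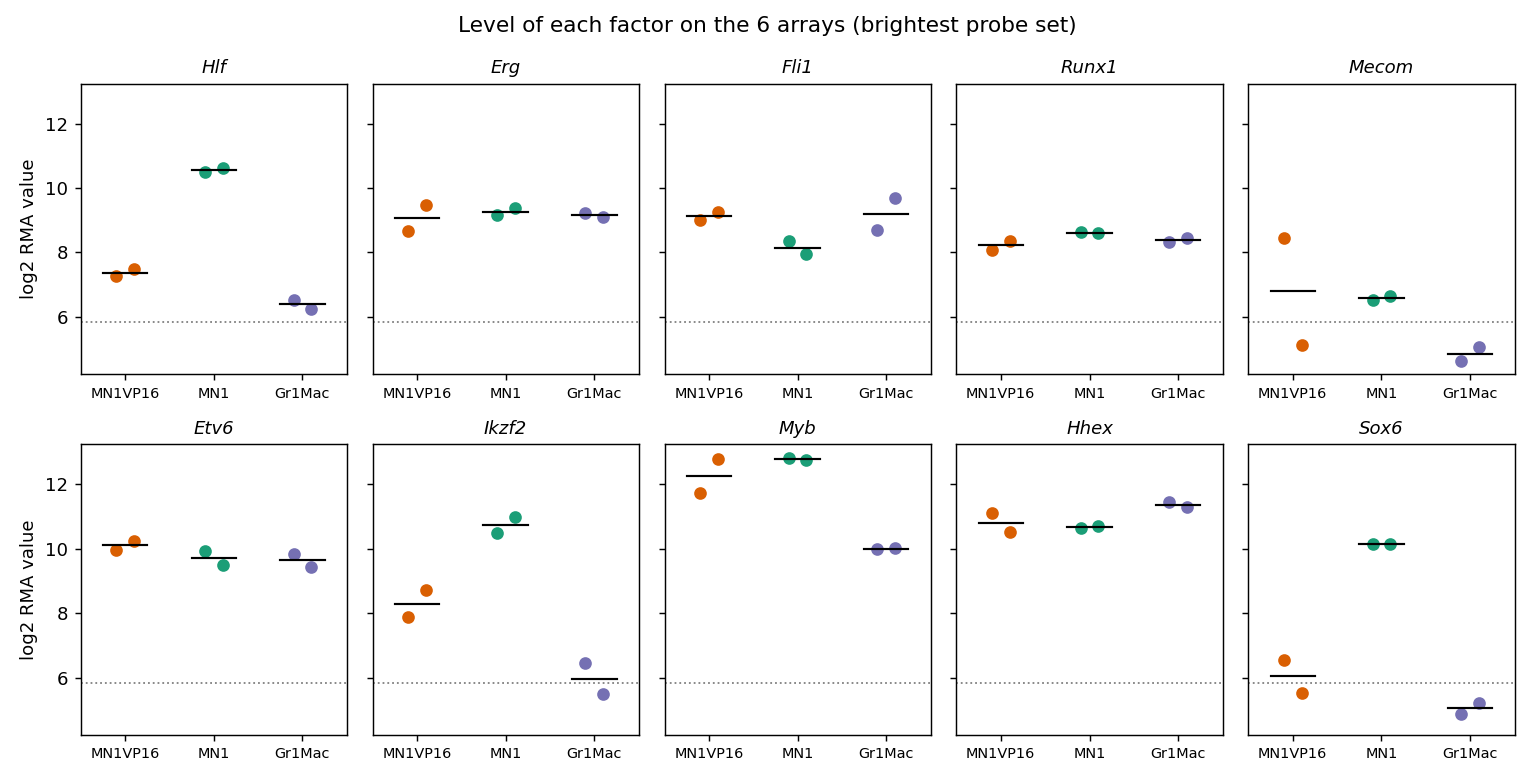
Log2 RMA value of each factor (vertical axis, 1 panel per gene) on the 2 arrays of MN1VP16, MN1 and Gr1Mac, with points for arrays, a bar for the group mean and a dotted line at 5.84, a guide to background. Hlf, Ikzf2 and Sox6 stand highest in MN1, Myb is high in both transduced groups, and for Mecom 1 MN1VP16 array is high and the other is under the guide.

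**Figure D2:**
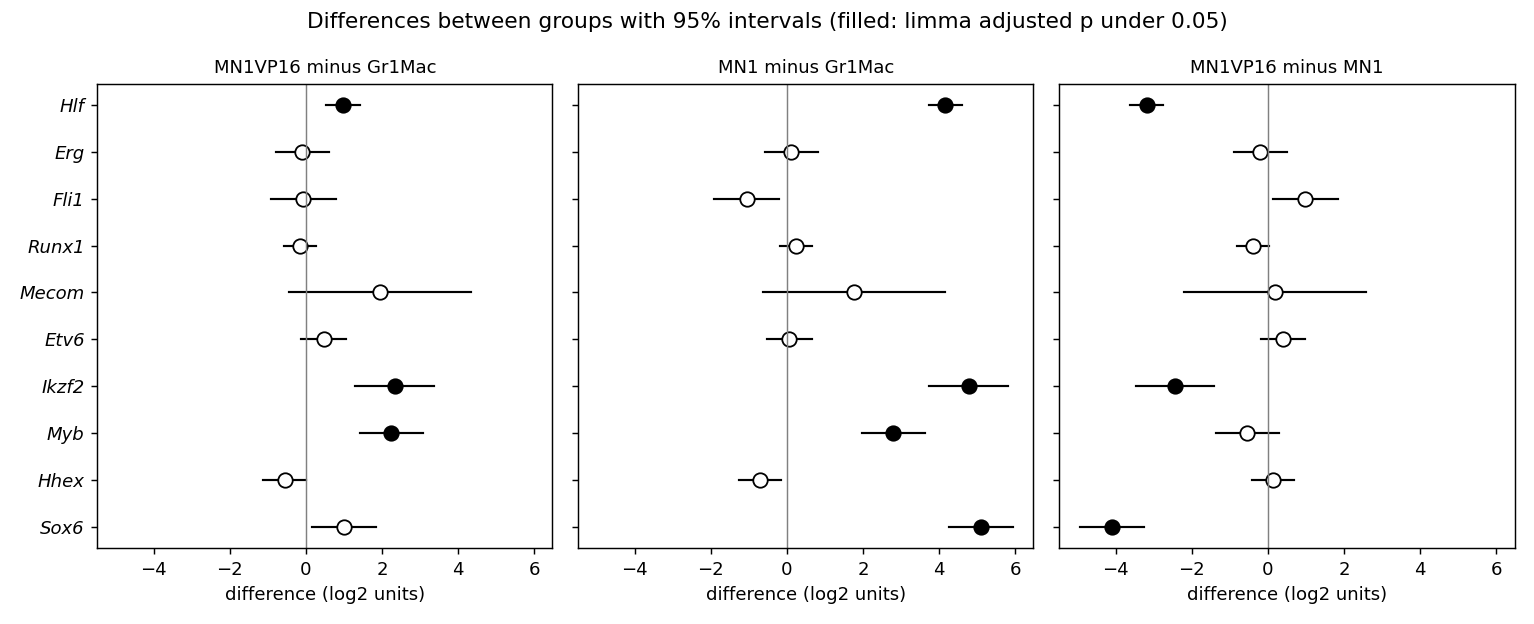
Difference in log2 units (horizontal axis) of each factor in the 3 comparisons, with lines for 95% intervals and filled points for limma adjusted p under 0.05. Filled points number 3, 4 and 3 from left to right, and Mecom has the widest intervals.

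Hlf encodes a bZIP factor of the PAR family and is known as a marker and keeper of blood stem cells. It read 7.25 and 7.47 in MN1VP16, 10.49 and 10.61 in MN1 and 6.53 and 6.25 in Gr1Mac. The 3 groups did not overlap, and arrays of a group lay within 0.28 of each other. With so few arrays a lack of overlap is common. Among all genes, 50.1% had MN1VP16 and Gr1Mac apart, 66.8% MN1 and Gr1Mac, and 59.7% MN1VP16 and MN1. Hlf was 17.9-fold higher in MN1 than in Gr1Mac, a difference of 4.16 ± 0.18 (limma adjusted p = 0.000613). Between the constructs it was 9.10-fold lower in MN1VP16 than in MN1, by -3.19 ± 0.18 (limma adjusted p = 0.00400). The gap between MN1VP16 and Gr1Mac was smaller, 1.96-fold or 0.97 ± 0.18 (limma adjusted p = 0.0388). The other Hlf probe set had the same order, with 6.78 and 6.89 in MN1VP16, 9.45 and 9.79 in MN1 and 6.03 and 5.79 in Gr1Mac. It was called in all 3 comparisons. On it Gr1Mac array 2 was under the background guide of 5.84, and the Gr1Mac levels of both probe sets were close to the guide. The folds over Gr1Mac thus rest on a level near background.

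Sox6, an SRY-related factor of red cell precursors that helps to silence embryonic globin genes, was lower in MN1VP16 than in MN1. It read 6.56 and 5.53 in MN1VP16, 10.15 and 10.13 in MN1 and 4.88 and 5.22 in Gr1Mac. Only the MN1 arrays were well clear of 5.84. Sox6 was at least 19.8-fold higher in MN1 than in Gr1Mac, a bound set by the background guide, with a measured difference of 5.09 ± 0.34 (limma adjusted p = 0.00108). The other 3 probe sets, whose Gr1Mac means were also under the guide, gave bounds of at least 13.7, 6.10 and 2.64-fold, and without probe sets of suffix _x_at, _s_at or _a_at the difference was 2.80 (limma adjusted p = 0.00124). In MN1VP16 it was 17.1-fold lower than in MN1 (-4.10 ± 0.34, limma adjusted p = 0.0115), with MN1VP16 array 2 under the guide. Sox6 was not called between MN1VP16 and Gr1Mac, at 0.99 with an interval from 0.15 to 1.83 (limma adjusted p = 0.152). All 4 of its probe sets were called higher in MN1 than in Gr1Mac and lower in MN1VP16 than in MN1, with MN1VP16 minus MN1 between -4.54 and -2.43. The size of the Sox6 differences thus depends on the probe set.

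Markers of red cell precursors were read beside Sox6. Of 9 measured, 4 were higher in MN1VP16 than in Gr1Mac, 7 were higher in MN1 than in Gr1Mac, and 6 were lower in MN1VP16 than in MN1. Their mean level was 8.17 and 7.77 in MN1VP16, 9.58 and 10.31 in MN1 and 7.04 and 6.96 in Gr1Mac, and their summed linear level was 3548 to 4440 in MN1VP16, 14587 to 23123 in MN1 and 2177 to 3578 in Gr1Mac. Klf1, the factor that drives red cell genes, read 9.68 and 8.46 in MN1VP16, 12.11 and 12.44 in MN1 and 5.90 and 6.53 in Gr1Mac. A summed linear level is weighted to the brightest genes. Alas2, for 1, read 8.85 and 7.87 in MN1VP16, 9.11 and 10.39 in MN1 and 10.98 and 9.72 in Gr1Mac. The part of red cell precursors in the Sox6 result was not tested. The embryonic globin genes Hbb-y and Hbb-bh1 were called in no comparison and read between 4.19 and 6.45.

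Ikzf2, also called Helios, is a zinc finger factor of the Ikaros family, known in stem cells and in regulatory T cells. It read 7.87 and 8.72 in MN1VP16, 10.48 and 10.99 in MN1 and 6.45 and 5.48 in Gr1Mac. The groups did not overlap, as is common among all genes, and MN1VP16 lay between MN1 and Gr1Mac. Gr1Mac array 2 was under the background guide. By group means Ikzf2 was 27.3-fold higher in MN1 than in Gr1Mac (4.77 ± 0.42, limma adjusted p = 0.00155) and 5.03-fold higher in MN1VP16 than in Gr1Mac (2.33 ± 0.42, limma adjusted p = 0.0374). In MN1VP16 it was 5.44-fold lower than in MN1 (-2.44 ± 0.42, limma adjusted p = 0.0424). A second probe set read 6.90 and 6.94 in MN1VP16, 8.68 and 9.50 in MN1 and 4.61 and 4.03 in Gr1Mac, and was called in the same directions. Its Gr1Mac arrays were both under the guide, so it allows only at least 9.54-fold in MN1 and at least 2.12-fold in MN1VP16 over Gr1Mac. The third Ikzf2 probe set lay between 3.74 and 4.30 on all 6 arrays, under the background guide, and was called in no comparison.

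T and NK cells also use Ikzf2. Of 9 of their markers measured, 0 were called higher and 1, the T cell receptor chain Cd3d, was lower both in MN1VP16 and in MN1 than in Gr1Mac. Their summed linear level was 794 to 846 in MN1VP16, 670 to 709 in MN1 and 1028 to 1132 in Gr1Mac. Foxp3, the defining factor of regulatory T cells, read 4.32 to 4.55 on all 6 arrays, under the background guide.

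Myb, needed for the growth of blood progenitors, was high in both transduced groups. It read 11.72 and 12.78 in MN1VP16, 12.83 and 12.76 in MN1 and 9.98 and 10.04 in Gr1Mac. MN1VP16 array 2 lay among the MN1 arrays, and array 1 lay 1.06 lower. Myb was 4.74-fold higher in MN1VP16 than in Gr1Mac (2.25 ± 0.34, limma adjusted p = 0.0262) and 6.90-fold higher in MN1 than in Gr1Mac (2.79 ± 0.34, limma adjusted p = 0.00308). MN1VP16 minus MN1 was -0.54 with an interval from -1.37 to 0.28, which neither shows a difference nor equal levels (limma adjusted p = 0.421). All 3 Myb probe sets were called higher in both transduced groups than in Gr1Mac and were not called between the constructs. The suffix of each marks possible matches to several transcripts. The other probe sets, at 9.76 and 10.75, and 7.06 and 8.55, in MN1VP16, also had array 1 lower, by 0.999 and 1.49.

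Mecom, also called Evi1, a zinc finger factor of stem cells and a known site of retroviral insertion, was not called in any comparison. Its representative probe set read 8.45 and 5.13 in MN1VP16, 6.53 and 6.66 in MN1 and 4.63 and 5.05 in Gr1Mac. MN1VP16 array 1 was high and both MN1 arrays were above the background guide of 5.84, while MN1VP16 array 2 and both Gr1Mac arrays were under it. The measured gap of 3.32 between the MN1VP16 arrays, and the differences from Gr1Mac that follow, are therefore against levels that can be background. Set against the guide, the group means allow only at least 1.93-fold more in MN1VP16 and at least 1.69-fold more in MN1 than in Gr1Mac, neither of them called. MN1VP16 minus Gr1Mac was 1.94 with an interval from -0.44 to 4.33, and MN1 minus Gr1Mac was 1.76 with an interval from -0.63 to 4.14 (limma adjusted p = 0.302 and 0.243). Without MN1VP16 array 1, MN1 minus Gr1Mac passed at the same 1.76 (limma adjusted p = 0.00456), and likewise without MN1VP16 array 2 (limma adjusted p = 0.00456). MN1VP16 minus Gr1Mac was 0.28 without MN1VP16 array 1 and 3.60 without array 2. The second of these is the high array alone against Gr1Mac, its limma adjusted p of 0.0110 takes the spread from the other groups only, and it is no replicated difference. MN1VP16 minus MN1 was 0.19 with all arrays and had the other sign without array 1, at -1.47. The other Mecom probe sets, at 4.65 to 5.31 and 3.13 to 3.29, lay under the background guide on all 6 arrays and did not show the high array.

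Megakaryocyte markers, taken as a list, also differed between the MN1VP16 arrays. Their summed linear level over 10 genes was 3270 and 1072 in MN1VP16, 2149 to 2500 in MN1 and 1687 to 2181 in Gr1Mac. The mean of their log2 values was 7.39 and 6.18 in MN1VP16, 7.12 and 6.85 in MN1 and 6.49 and 6.36 in Gr1Mac. The platelet glycoprotein gene Gp5 read 8.95 and 5.37 in MN1VP16, 8.46 and 8.77 in MN1 and 4.81 and 4.78 in Gr1Mac. Itga2b, the integrin chain of platelets and their precursors, read 10.11 and 8.08 in MN1VP16, 10.11 and 9.91 in MN1 and 7.08 and 6.76 in Gr1Mac. Not every marker followed this. Clec1b read 6.11 and 6.59 and Ppbp 4.32 and 4.59 in MN1VP16, lower on array 1, and Gp9 read 7.56 and 7.37. Of the 10 markers, 3 were higher and 2, Clec1b and Itgb3, lower in MN1 than in Gr1Mac. In MN1VP16 minus Gr1Mac 0 were higher and 1, Clec1b, was lower. The part of megakaryocytes in the Mecom values was not tested.

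Erg, Fli1 and Etv6 belong to the ETS family, in which Erg and Fli1 mostly activate genes and Etv6 represses them. None was called in any comparison by its representative probe set. Erg, needed for the self-renewal of stem cells, read 8.65 and 9.48 in MN1VP16, 9.17 and 9.37 in MN1 and 9.22 and 9.09 in Gr1Mac. Its groups overlapped throughout, and the interval of MN1 minus Gr1Mac ran from -0.59 to 0.81 (limma adjusted p = 0.818), which is less than a doubling either way. The interval of MN1VP16 minus MN1 was -0.90 to 0.50 for Erg. A second Erg probe set, at 5.93 to 6.49, was close to the background guide. On it both Gr1Mac arrays, at 6.49 and 6.31, lay above the MN1VP16 and MN1 arrays. Its MN1 minus Gr1Mac was -0.43 with an interval from -0.80 to -0.06, where the representative probe set gave 0.11. MN1VP16 minus Gr1Mac was -0.40 with an interval from -0.77 to -0.03. Neither was called (limma adjusted p = 0.0909 and 0.193, in a fit of all probe sets).

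Fli1, a factor of stem cells and megakaryocytes, read 9.01 and 9.25 in MN1VP16, 8.35 and 7.94 in MN1 and 8.70 and 9.70 in Gr1Mac. Both MN1 arrays were the lowest, while MN1VP16 and Gr1Mac overlapped. MN1 minus Gr1Mac was -1.05 with an interval from -1.91 to -0.20 (limma adjusted p = 0.0701), and MN1VP16 minus MN1 was 0.98 with an interval from 0.13 to 1.83 (limma adjusted p = 0.170). The other Fli1 probe set, at 8.37 and 8.32 in MN1VP16, 7.88 and 6.97 in MN1 and 9.31 and 8.79 in Gr1Mac, was lower in MN1 than in Gr1Mac in a fit of all 34945 probe sets (-1.62 ± 0.33, limma adjusted p = 0.0150). With the mean of both probe sets, MN1 minus Gr1Mac was -1.34 (limma adjusted p = 0.0104). Leaving out 1 array at a time, it ran from -1.55 without Gr1Mac array 1 (limma adjusted p = 0.0178) to -0.56 without Gr1Mac array 2 (limma adjusted p = 0.186), and it was -0.85 without MN1 array 2 (limma adjusted p = 0.301). Of these 6 fits, the one without Gr1Mac array 1 was the only one that passed, and in it the lone Gr1Mac array is assumed to vary like the arrays of the other groups.

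Etv6, a repressor that stem cells need in adult marrow, read 9.96 and 10.24 in MN1VP16, 9.93 and 9.48 in MN1 and 9.84 and 9.44 in Gr1Mac. The MN1VP16 arrays were the highest by a margin within the spread of the other arrays. The interval of MN1VP16 minus Gr1Mac was -0.12 to 1.05 for Etv6 (limma adjusted p = 0.318), and that of MN1 minus Gr1Mac -0.52 to 0.65. Its other probe set read 6.97 and 6.98 in MN1VP16, 6.74 and 6.35 in MN1 and 6.37 and 6.98 in Gr1Mac. On that probe set MN1VP16 and Gr1Mac overlapped, and it was called in no comparison.

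Runx1, which blood stem cells need in order to arise in the embryo, read 8.08 and 8.36 in MN1VP16, 8.64 and 8.59 in MN1 and 8.33 and 8.44 in Gr1Mac. None of its 6 probe sets was called in any comparison, and their MN1 minus Gr1Mac differences lay between -0.14 and 0.44. For the representative one, MN1VP16 minus MN1 was -0.39 with an interval from -0.81 to 0.02 (limma adjusted p = 0.240). Its DNA-binding partner Cbfb was not called in any comparison and read 11.43 and 11.52 in MN1VP16, 11.58 and 11.44 in MN1 and 11.51 and 11.42 in Gr1Mac.

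Hhex, a homeobox factor of early progenitors and B lineage cells, read 11.11 and 10.51 in MN1VP16, 10.63 and 10.71 in MN1 and 11.44 and 11.31 in Gr1Mac. Both Gr1Mac arrays were the highest. MN1 minus Gr1Mac was -0.70 with an interval from -1.26 to -0.15 (limma adjusted p = 0.0660), and MN1VP16 minus Gr1Mac was -0.56 with an interval from -1.12 to -0.01 (limma adjusted p = 0.204). With either MN1VP16 array left out, MN1 minus Gr1Mac stayed at -0.70 and passed (limma adjusted p = 0.0332), where only the spread in the fit differs.

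**Figure D3:**
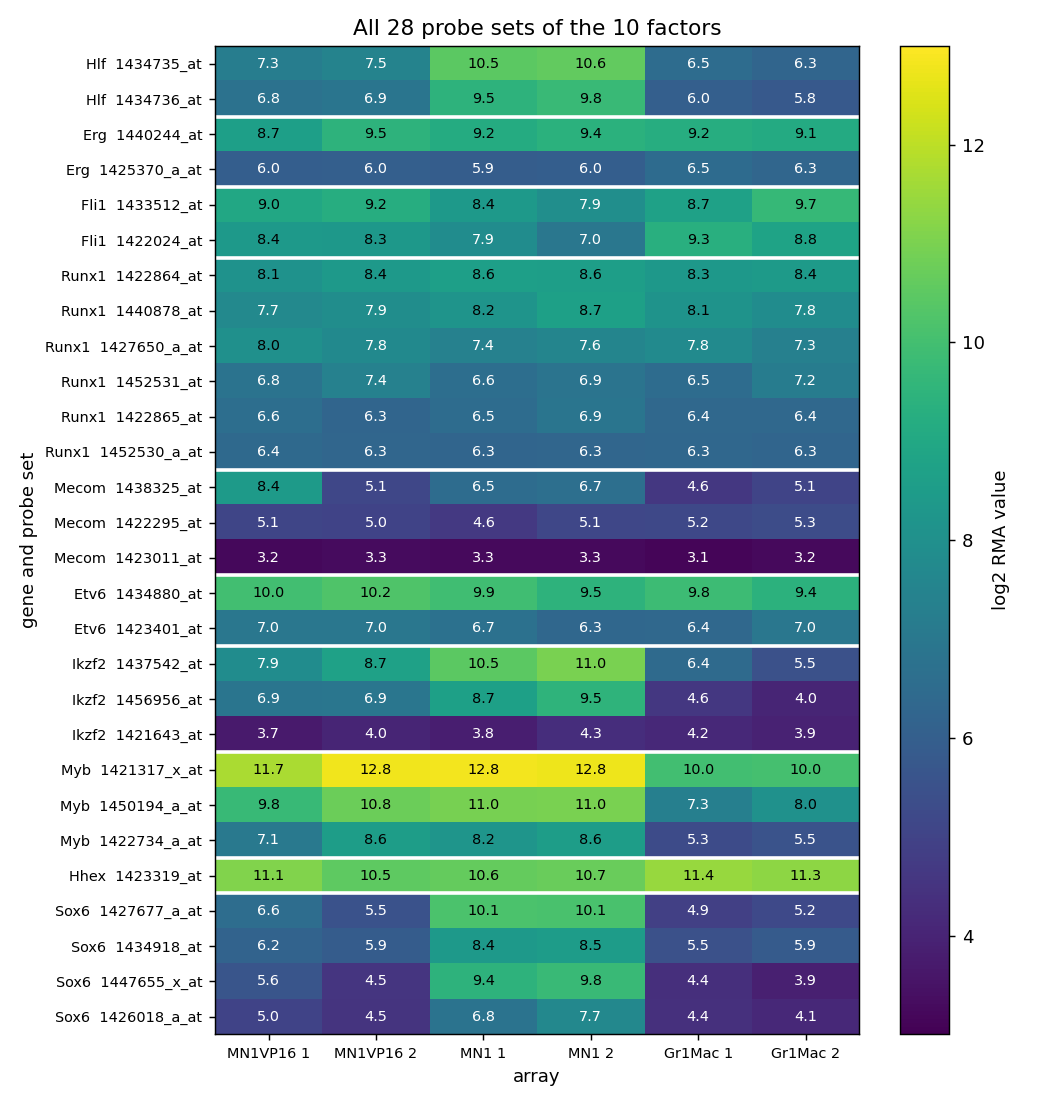
Log2 RMA value (colour and printed number) of all 28 probe sets (down the page, grouped by gene, brightest first) on the 6 arrays (across). The probe sets of Hlf, Myb and Sox6 share their gene's order of groups, while Ikzf2 and Mecom have dim ones that stay flat.

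How firm these calls are differed between the comparisons. The 4 calls in MN1 minus Gr1Mac held under all 17 alternatives (16 for Myb), of which some are the same fit. The sex pattern as a block here equals leaving out Gr1Mac array 2, and the fit of 4 arrays equals leaving out either MN1VP16 array. With the control feature split as a block, the effect of the split comes from the 2 MN1VP16 arrays alone. In that fit limma called 1486 genes, against 5334 without the block. Group and control feature split cannot be told apart otherwise. In MN1VP16 minus Gr1Mac the calls lay near the threshold. Hlf kept its call under 7 of 17 alternatives, Ikzf2 under 9 of 17 and Myb under 10 of 16. Here too some alternatives are the same fit and no separate checks. The control feature split as a block equals leaving out MN1VP16 array 1, and the sex pattern as a block equals leaving out Gr1Mac array 1. The fit of 4 arrays equals leaving out either MN1 array. Hlf lost its call without MN1VP16 array 1 (adjusted p = 0.0806) or array 2 (0.144), without either MN1 array (0.0843 each) and without Gr1Mac array 2 (0.107). It also lost its call with arrays centred on their median (0.0527) and with limma's trended, robust moderation (0.0606). Ikzf2 lost it without the same arrays (0.0510 and 0.111, 0.0721 each, and 0.121). Myb lost it without either MN1 array (0.0611 each) or Gr1Mac array 1 or 2 (0.0712 and 0.103), and with the sex pattern as a block (0.0712). Leaving out an MN1 array does not touch the differences, which stayed at 0.97 for Hlf, 2.33 for Ikzf2 and 2.25 for Myb, and calls over all genes were 347 in those fits, against 1050 with all 6 arrays. The differences of the 3 factors kept their sign under all these alternatives, at 0.83 to 1.11 for Hlf, 1.59 to 2.81 for Ikzf2 and 1.72 to 2.78 for Myb.

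Between MN1VP16 and MN1, Hlf kept its call without each array in turn, and Sox6 lost it without MN1 array 2 (-4.10, limma adjusted p = 0.0916). In this comparison the control feature split as a block is the same fit as leaving out MN1VP16 array 2. The fit of its 4 arrays alone is the same as leaving out either Gr1Mac array. Ikzf2, at an adjusted p just under the threshold, kept its call under 6 of 17 alternatives. It lost it without any 1 array (adjusted p between 0.0559 and 0.255), with arrays centred on their median (0.0517) and with the control feature split as a block (0.0624). With the sex pattern as a block all 3 lost their calls, at -2.91 for Hlf, -4.44 for Sox6 and -1.48 for Ikzf2 (limma adjusted p = 0.172, 0.225 and 0.396). In that fit the sex effect comes from the 2 Gr1Mac arrays alone and 0 of 18193 genes were called by limma, with 2501 at an unadjusted p under 0.05. Sex pattern and construct cannot be told apart otherwise. Within the arrays high in Xist, MN1 minus Gr1Mac was 4.02 for Hlf, 5.26 for Sox6, 4.29 for Ikzf2 and 2.82 for Myb. Among the arrays high in Y-linked genes, MN1VP16 minus Gr1Mac was 1.11 for Hlf, 0.82 for Sox6, 2.81 for Ikzf2 and 2.22 for Myb. Within the 3 arrays on MN1VP16 array 1's side of the control features, MN1VP16 minus MN1 was -3.30 for Hlf, -3.58 for Sox6, -2.87 for Ikzf2 and -1.07 for Myb. On the other side of that split, MN1VP16 minus Gr1Mac was 1.08 for Hlf, 0.48 for Sox6, 2.76 for Ikzf2 and 2.78 for Myb.

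The factors described as binding DNA with Erg, Fli1 and Runx1 were read beside them, as a list drawn up with earlier results known. Of these 4, Gata2 and Lmo2 were higher in MN1VP16 than in Gr1Mac, and Gata2, Tal1 and Lmo2 were higher in MN1 than in Gr1Mac. Gata2, a zinc finger factor of stem cells and mast cells, read 11.09 and 9.70 in MN1VP16, 11.89 and 11.88 in MN1 and 5.69 and 4.91 in Gr1Mac. Tal1, a helix-loop-helix factor, read 9.19 and 7.43 in MN1VP16, 11.16 and 11.64 in MN1 and 6.21 and 5.62 in Gr1Mac, and was the 1 of the 4 that was lower in MN1VP16 than in MN1 (-3.09 ± 0.57, limma adjusted p = 0.0474). Lmo2, a bridging protein, read 11.79 and 11.87 in MN1VP16, 12.01 and 12.02 in MN1 and 11.09 and 10.61 in Gr1Mac. Lyl1 was not called in any comparison. The median difference of the 4 was 1.69 in MN1VP16 minus Gr1Mac, 3.32 in MN1 minus Gr1Mac and -0.84 in MN1VP16 minus MN1.

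Relatives of the factors were read next. Of 21 other ETS factors measured, 5 were lower in MN1 than in Gr1Mac and 0 higher, and 0 were called in either direction in the other comparisons. Spi1, also called PU.1, a factor that granulocytes and monocytes need, read 11.20 and 10.76 in MN1VP16, 9.82 and 8.99 in MN1 and 11.90 and 11.56 in Gr1Mac, 5.02-fold lower in MN1 (-2.33 ± 0.32, limma adjusted p = 0.00430). The next 2 by size, Etv5 and Spic, had means under the background guide in both groups. The other Ikaros factors were not called except Ikzf1, which was 1.58-fold lower in MN1 than in Gr1Mac (-0.66 ± 0.16, limma adjusted p = 0.0244). Mybl1 and Mybl2 were not called in any comparison.

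Among 7 relatives of Sox6 and Mecom, Sox4, a factor of progenitors, was the 1 that was called. It read 8.25 and 8.15 in MN1VP16, 9.72 and 9.89 in MN1 and 5.21 and 6.56 in Gr1Mac, higher in MN1VP16 (4.97-fold, limma adjusted p = 0.0371) and in MN1 (15.1-fold, limma adjusted p = 0.00222) than in Gr1Mac. Tef, a relative of Hlf, was 2.41-fold higher and Nfil3, a repressor that can bind the same sites, 3.37-fold lower in MN1 than in Gr1Mac (limma adjusted p = 0.0111 and 0.00590). Of 5 Runx relatives and partners, Cbfa2t3, Runx3 and Cbfa2t2 were higher in MN1 than in Gr1Mac, by 1.52 ± 0.22, 1.07 ± 0.21 and 0.93 ± 0.17. The first and last of these are corepressors, while Runx3 is a DNA-binding relative of Runx1.

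Of 14 cofactors measured, 1 was lower in MN1VP16 than in Gr1Mac, the corepressor Tle1, and 4 were higher and 2 lower in MN1 than in Gr1Mac. The largest of the 4 was Ldb1, which links Lmo2 to other factors, 3.35-fold higher in MN1 (1.74 ± 0.30, limma adjusted p = 0.00789). Tle1 and the coactivator Crebbp, a partner of Myb, were the 2 lower in MN1 than in Gr1Mac, Tle1 at least 1.95-fold and Crebbp 1.78-fold.

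Among 17 other regulators described in blood stem cells, 4 were higher and 1 lower in MN1VP16 than in Gr1Mac, and 10 were higher and 2 lower in MN1 than in Gr1Mac. In MN1VP16 minus MN1, 1 was higher, Zbtb16, and 2 were lower, Gfi1b and Msi2. Gfi1b, a repressor of stem cells and of the red cell and platelet lines, read 8.12 and 7.00 in MN1VP16, 10.66 and 11.16 in MN1 and 6.36 and 6.52 in Gr1Mac. Msi2, an RNA-binding protein of stem cells, read 7.86 and 6.81 in MN1VP16, 10.07 and 10.43 in MN1 and 5.45 and 5.39 in Gr1Mac. Both had their group means in the order of those of Hlf, Ikzf2, Sox6 and Myb, an order that Hoxa9, Tal1 and Gata2 shared as well. Hoxa9, a homeobox factor of stem cells and of many leukaemias, read 9.92 and 11.63 in MN1VP16, 12.38 and 12.71 in MN1 and 5.02 and 4.17 in Gr1Mac. It was at least 30.7-fold higher in MN1VP16 and at least 104.5-fold higher in MN1 than in Gr1Mac (limma adjusted p = 0.0125 and 0.00117). Mycn, the N-Myc gene, was high in both transduced groups like Myb, with 11.52 and 12.29 in MN1VP16, 12.18 and 12.48 in MN1 and 6.80 and 7.28 in Gr1Mac.

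Of 18 measured genes described as targets of these factors, 6 were higher and 0 lower in MN1VP16 than in Gr1Mac, and 8 were higher and 2 lower in MN1 than in Gr1Mac. Between the constructs, Csf1r was higher in MN1VP16 than in MN1, and Myc and Kit were lower. Csf1r, the receptor for macrophage colony-stimulating factor and a described target of Runx1, read 12.88 and 12.34 in MN1VP16, 9.98 and 9.67 in MN1 and 13.18 and 12.60 in Gr1Mac. The MN1VP16 arrays overlapped Gr1Mac here and stood 2.78 ± 0.29 above MN1 (limma adjusted p = 0.0175). Kit, the receptor for stem cell factor, which Myb is described as regulating, read 9.68 and 9.81 in MN1VP16, 11.12 and 11.24 in MN1 and 8.34 and 8.996 in Gr1Mac, and was lower in MN1VP16 than in MN1 by -1.43 ± 0.24 (limma adjusted p = 0.0408). Cd34, a surface protein of progenitors, read 11.00 and 9.50 in MN1VP16, 10.50 and 11.15 in MN1 and 4.96 and 4.00 in Gr1Mac, high in both transduced groups like Myb.

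Markers of other cell types that use these factors were read in the same way. Of 11 endothelial markers, 0 were called in MN1VP16 minus Gr1Mac, Plvap and Egfl7 were higher in MN1 than in Gr1Mac, and Plvap was lower in MN1VP16 than in MN1. Cdh5, the cadherin that defines endothelium, read 4.03 to 4.67 on all 6 arrays, under the background guide. The summed linear level of the endothelial markers was 455 to 472 in MN1VP16, 920 to 936 in MN1 and 365 to 411 in Gr1Mac. Of 9 B cell markers, Vpreb1 was higher in MN1VP16 than in Gr1Mac, Ighm and Ms4a1 were lower in MN1 than in Gr1Mac, and Cd79a was higher in MN1VP16 than in MN1. The B cell markers summed to 4130 and 12018 in MN1VP16, 1057 to 1474 in MN1 and 3135 to 7049 in Gr1Mac. Ighm was the brightest of them and weighs most in that sum, at 11.66 and 13.42 in MN1VP16. Mast cell markers summed to 10529 to 12684 in MN1VP16, 23086 to 31121 in MN1 and 4116 to 6233 in Gr1Mac. The Gr1Mac sum is mostly Hdc, at 11.88 and 12.55 there, where Cpa3 read 5.59 and 4.08. The mean of the log2 values of these markers was 9.19 and 8.31 in MN1VP16, 9.62 and 10.20 in MN1 and 6.53 and 6.20 in Gr1Mac. Of the 7, 2 were higher in MN1VP16 and 4 in MN1 than in Gr1Mac, and 0 were called between the constructs. The part of these cells in the values of the 10 factors was not tested.

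**Figure D4:**
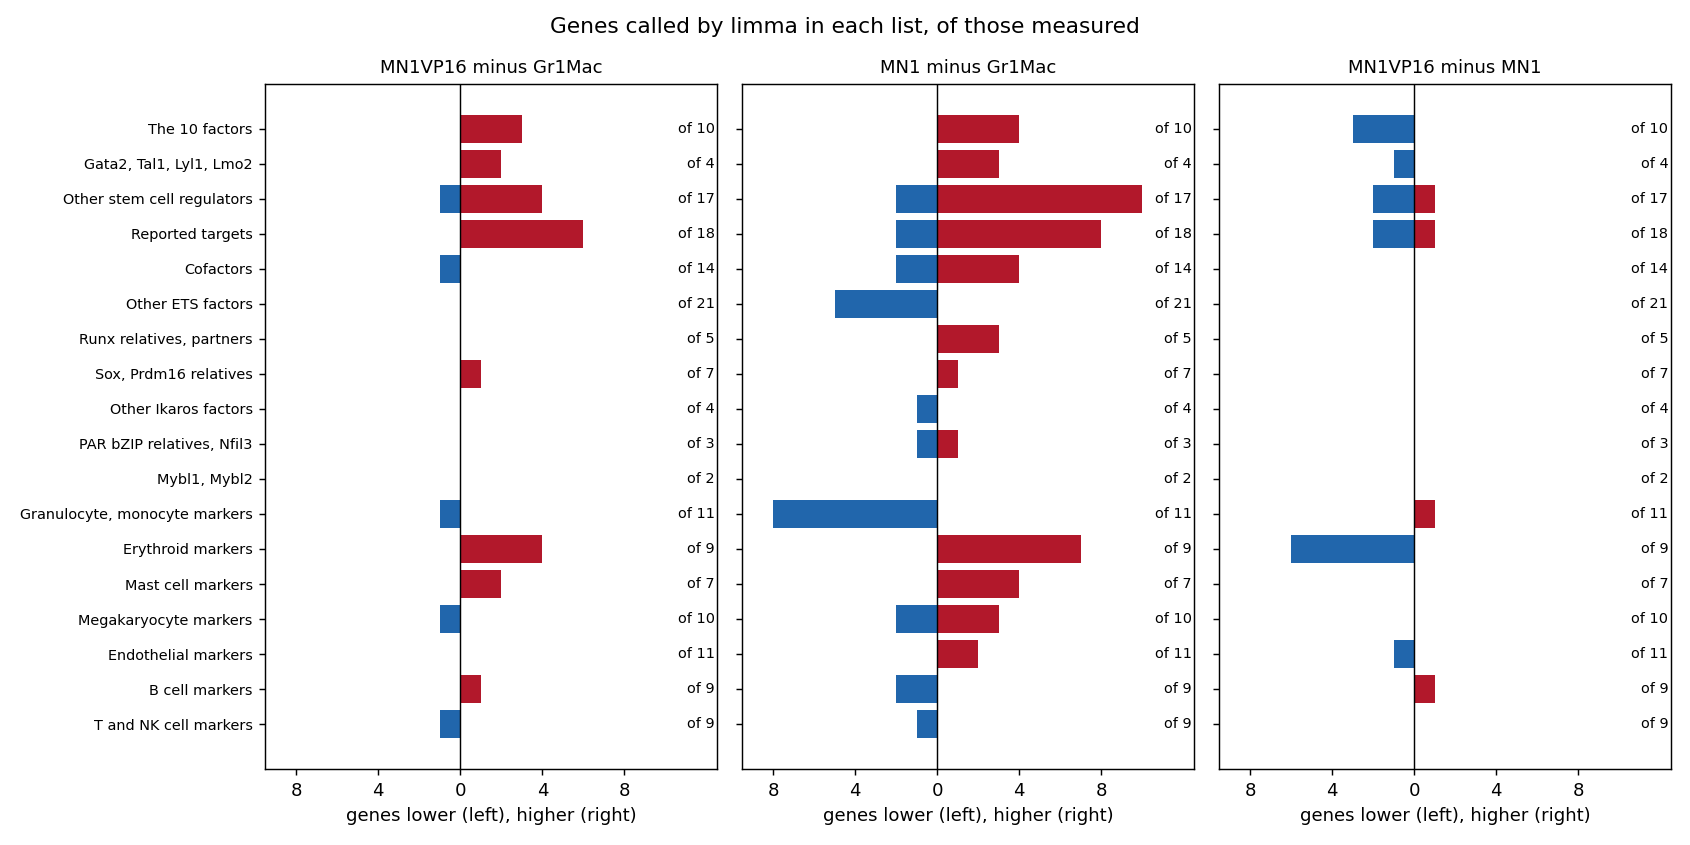
Number of genes called lower (left of 0) or higher (right of 0) by limma in each list, with the number measured at the right edge of each of the 3 panels. The 10 factors have 3, 4 and 3 calls in the panels from left to right, and erythroid markers 4 and 7 higher and 6 lower.

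Genes outside the 10 with the profile nearest to Hlf, Erg and Myb were found by the root-mean-square difference between profiles over the 6 arrays, each centred on its own mean. Nearest to Hlf were Tnik, Fam98a and Adgrl2, at 0.31, 0.35 and 0.35 log2 units. Nearest to Erg were E2f8, Stmn3 and Bub1, at 0.06, 0.08 and 0.08, where flat profiles make small distances easy. The nearest to Myb were Snhg1, Cdk6 and Apex1, at 0.20, 0.23 and 0.23. All arrays of a group share their condition, so these distances describe 3 groups more than 6 independent points. Among the 10 factors themselves, Hlf was nearest to Sox6 in profile (0.59, Pearson r = 0.98 over the 6 arrays) and next to Ikzf2 (0.63, r = 0.95).

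**Figure D5:**
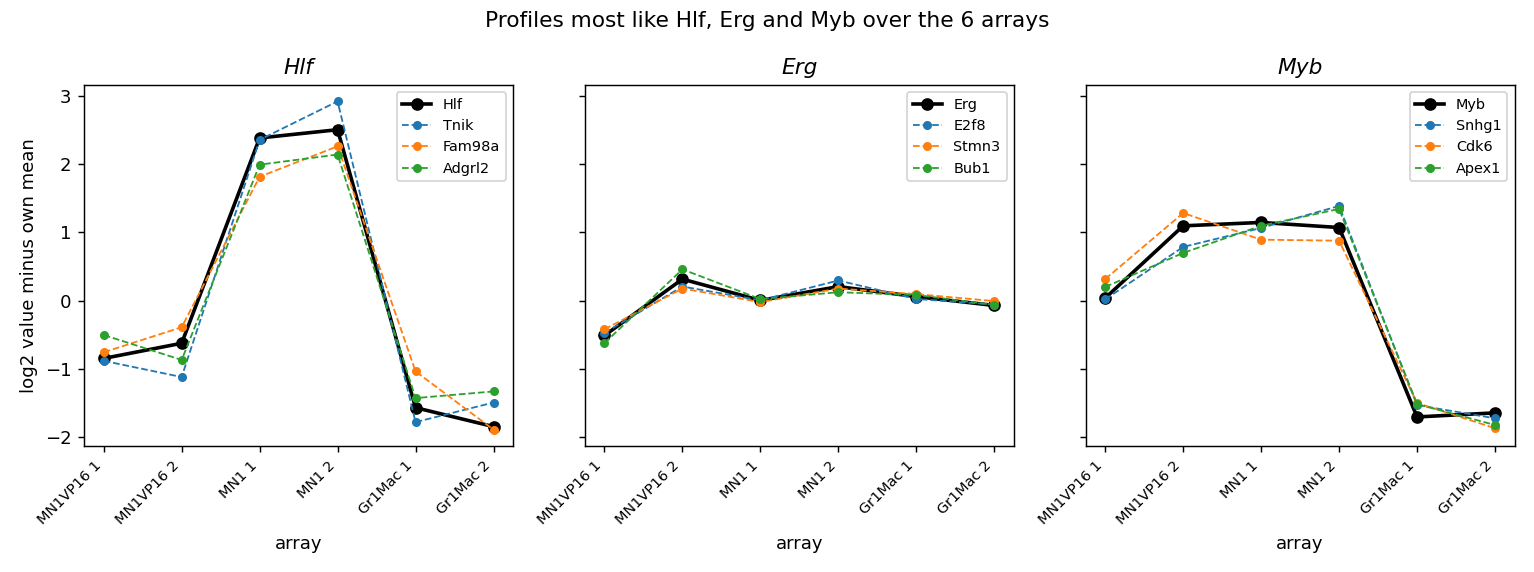
Log2 value minus the gene's own mean (vertical axis) on the 6 arrays (horizontal axis) for Hlf, Erg and Myb in black and their 3 nearest genes in colour, with lines drawn only to guide the eye. Hlf and its neighbours are high on the MN1 arrays, and Myb and its neighbours are low on the Gr1Mac arrays.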

How the data were processed

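For each of 6 arrays the authors deposited log2 signals of every probe set. Per the submitters' processing notes these are RMA values, and no RMA version is given in the sources used here. RMA corrects background, quantile-normalises arrays and summarises probes, which compresses differences of dim genes and hides changes in total RNA. Depth has no meaning for arrays, and the number of arrays limits the precision. Of 45101 lines, 64 were control features. GEO's annotation named 1 gene for 34945 probe sets, several for 932 and none for 9160, and only the first kind was used. Gene numbers matched a RefSeq table for 34741 of them.

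Group means were compared with limma 3.58.1 in R 4.3.3 (lmFit, eBayes, all 6 arrays, group as the only term, 3 residual and 3.03 prior degrees of freedom). An exact permutation test of 2 arrays against 2 cannot fall below p = 0.333, so none was used. For a dimmer group with a mean not above 5.84, a level chosen after values were seen, folds are lower bounds. They are computed from the mean of that group's arrays after values under 5.84 were raised to 5.84. The fit was tested on simulated data. All 10 factors are named with every probe set, from 17 further lists the 3 largest calls per direction may be named, and nearest genes are given for Hlf, Erg and Myb. Cbfb, Lyl1, Cdh5, Foxp3, Hbb-y, Hbb-bh1, Mybl1, Mybl2, Alas2, Hdc and Ppbp are outside this rule and were chosen after their values were seen. Members and lists were chosen with earlier results of these data known. Alternatives changed the choice of probe set, filters, scaling, moderation, blocks and arrays.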

Additional observations from a re-analysis of the deposited data

How the results depend on the processing

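Over the 10 factors and 3 comparisons, 443 of 507 recomputed differences kept their direction and side of the threshold, 38 lost a call, 9 gained one and 17 changed sign, each of the 17 in a difference that was not called. The cause of these changes was not tested beyond what the settings themselves fix. Nor are the 507 separate checks, since some settings are the same fit. Trended, robust moderation, the replicate block, the 4-array fit and the filter on dim genes leave the difference itself unchanged. So do fitting every probe set and leaving out an array of the third group. In those the direction could not change, only the side of the threshold. With only the 4 arrays of a comparison in the fit, 0 factors (4 at an unadjusted p under 0.05) and 347 genes were called by limma in MN1VP16 minus Gr1Mac and 454 genes in MN1VP16 minus MN1. With the control feature split as a block, 1 factor and 441 genes were called in MN1VP16 minus Gr1Mac, 1486 genes in MN1 minus Gr1Mac and 203 in MN1VP16 minus MN1. With the sex pattern as a block, 0 factors (2 at an unadjusted p under 0.05) and 0 genes (2501) were called by limma in MN1VP16 minus MN1. Fitting every probe set, more features tested, gave 1900, 9277 and 1138 calls in MN1VP16 minus Gr1Mac, MN1 minus Gr1Mac and MN1VP16 minus MN1, against 1050, 5334 and 701 genes. The replicate block left 1 of 3 factors called in MN1VP16 minus Gr1Mac, with adjusted p of 0.0639 for Hlf and 0.0579 for Ikzf2, and in MN1VP16 minus MN1 Ikzf2 was at 0.0621 with it. Centring arrays on their median ended the calls of Hlf in MN1VP16 minus Gr1Mac (0.0527) and of Ikzf2 in MN1VP16 minus MN1 (0.0517), and trended, robust moderation that of Hlf in MN1VP16 minus Gr1Mac (0.0606). The control feature split as a block ended the calls of Hlf (0.0806) and Ikzf2 (0.0510) in MN1VP16 minus Gr1Mac. Deviations of same-numbered arrays from their group means correlated at -0.05, 0.08 and -0.05 across genes. With 2 arrays a group this shows no strong link between same-numbered arrays but cannot exclude a pairing. Where 1 array of a group is left out, the lone array is assumed to vary like those of the other groups. Leaving out 1 array at a time gave 0 to 2 factors and 49 (without Gr1Mac array 2) to 1243 genes in MN1VP16 minus Gr1Mac, 4 to 6 factors and 2418 (without MN1 array 2) to 5129 genes in MN1 minus Gr1Mac, and 1 to 2 factors and 26 (without MN1 array 2) to 498 genes in MN1VP16 minus MN1.

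Sign changes by setting were these. With the mean of all probe sets, Runx1 was 0.0599 in MN1VP16 minus Gr1Mac, and Erg was -0.16 and Etv6 -0.0328 in MN1 minus Gr1Mac. With the control feature split as a block, Erg was 0.32 and Fli1 0.0465 in MN1VP16 minus Gr1Mac and Mecom -1.57 in MN1 minus Gr1Mac. With the sex pattern as a block, Etv6 was -0.14 in MN1 minus Gr1Mac, and Fli1 was -0.0118 and Mecom -0.24 in MN1VP16 minus MN1. Leaving out 1 array at a time, MN1VP16 minus Gr1Mac ran from -0.51 to 0.32 for Erg and from -0.57 to 0.42 for Fli1, and MN1 minus Gr1Mac from -0.16 to 0.29 for Etv6. In MN1VP16 minus MN1 it ran from -0.62 to 0.21 for Erg, from -1.47 to 1.85 for Mecom and from -0.16 to 0.43 for Hhex.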
